A study of Mus musculus with 40 samples.

Results

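BAT acts as a secretory tissue as well as a source of heat, and the transcripts of 7 factors that brown fat is reported to secrete are described here: *Fgf21*, *Nrg4*, *Bmp8b*, *Gdf15*, *Il6*, *Slit2* and *Metrnl*. They were found by symbol in the table of raw counts, where all 7 were present among 20295 genes. The study sequenced BAT RNA of 40 male mice kept at 29 °C, in 8 groups of 5. The C-3BO cohort held mice of 13 to 19 weeks that carried both *Ucp1*-Cre and the *Gpr3* TTG allele, in which Cre removes a stop cassette so that a CAG promoter at the *Rosa26* locus drives *Gpr3*. Their control littermates were labelled WT. Per the study's methods they carried either *Ucp1*-Cre or the silent transgene without the other, and which control held which is not given. Because *Ucp1* drives Cre, the transgene is switched on wherever that promoter is or has been active, which includes beige adipocytes. These mice ate chow or spent 7 days on HFD with 60 kcal% fat. The CL cohort was labelled wildtype and, per the study's methods, consisted of 15-week-old control littermates of the inducible strain, which lack either the transgene or its inducible Cre. These mice received saline or CL, an agonist of the β3-adrenergic receptor, at 1 mg/kg daily for 9 days, on chow or with 7 days of HFD that began 2 days after the first injection. Per the study's methods, tissue was taken on the day after the last CL injection, so as to look at chronic and not acute effects. The 4 treatment comparisons asked how a constitutively active receptor and repeated adrenergic stimulation act on the same tissue on either diet.

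Brown adipocytes release peptide signals that act on neighbouring cells, on nerves and vessels, or through the blood on liver and brain. Several of these factors are known to be induced in thermogenic fat by cold or by cAMP signalling, and others belong to stress or inflammatory responses. Each is made as a precursor, most of them are cut by proteases before or after release, and each acts through its own receptor, so that transcript levels in BAT describe the supply of the message and not the amount of protein that leaves the tissue.

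The 40 libraries held between 849126 and 15260516 counts, with a median of 9050167. The 12 smallest libraries, with totals up to 7284129, were those of the CL cohort on HFD, both arms, together with HFD C-3BO replicates 4 and 5. These 12 also carried liver and epididymis transcripts. The 13 liver markers summed to between 92.2 and 464 CPM in them and to at most 5.58 CPM in the other 28. CPM here are counts scaled to library size with edgeR's TMM factors. The level of 3 counts, taken as the least that a library can show, ranged from 0.206 to 3.01 CPM over the libraries, with the highest in the smallest library. This limit reflects counting error alone. The 10 markers of brown adipocytes were present in every group and summed to between 12661 and 34396 CPM per library. On HFD the sum was 30185 to 34396 CPM in C-3BO and 14758 to 27994 CPM in control mice, and 22250 to 28388 CPM in CL and 14384 to 17526 CPM in saline mice. On chow it was 20328 to 29182 CPM in C-3BO and 12661 to 17329 CPM in control mice, and the CL and saline ranges overlapped. The part of this shift in the factor levels was not tested. *Gpr3* itself lay between 266 and 918 CPM in the 10 C-3BO libraries and at or below 9.15 CPM in all others. In bulk tissue, fewer cells of a type and less RNA per cell cannot be told apart.

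Per kilobase of exon, *Nrg4* was by far the most abundant of the 7, at a mean of 63.7 CPM per kb over the 40 libraries. *Metrnl* followed at 3.99 CPM per kb, then *Gdf15* at 1.27 and *Bmp8b* at 1.26. *Fgf21* stood at 0.395, *Slit2* at 0.101 and *Il6* at 0.0355 CPM per kb. The low-count filter of edgeR kept *Nrg4*, *Bmp8b*, *Gdf15*, *Slit2* and *Metrnl*, which were tested, and removed *Fgf21* and *Il6*. *Fgf21* had 114 counts in all 40 libraries together and *Il6* had 16.

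**Figure D1:**
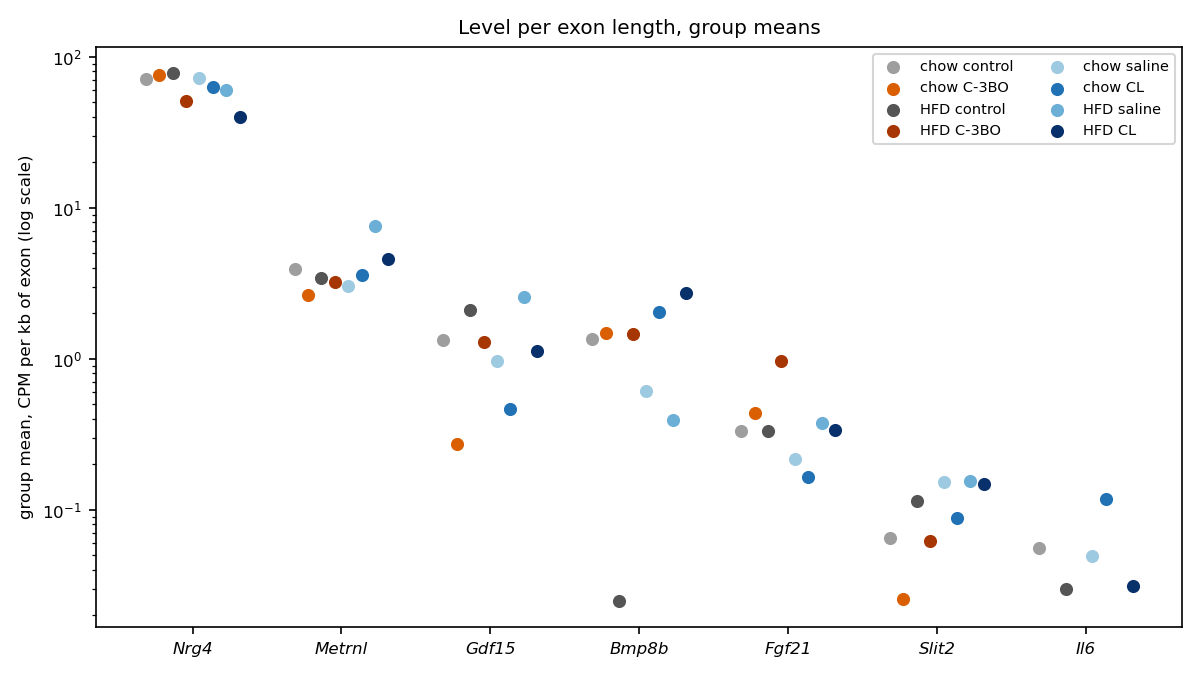
Mean level of each factor in each of the 8 groups, in CPM per kb of exon on a log axis, with 1 point per group of 5 mice. *Nrg4* stands above the others in every group, the point of *Bmp8b* far below its other 7 is HFD control at 0.0248 CPM per kb, and groups at 0, which *Il6* has 3 of, cannot be drawn on this axis.

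All 7 genes lie on autosomes, and positions refer to mm9. *Nrg4* (NM_032002) lies on chromosome 9 at 55068029 to 55131432, *Bmp8b* (NM_007559) on chromosome 4 at 122782408 to 122803334 and *Metrnl* (NM_144797) on chromosome 11 at 121563741 to 121578703. *Gdf15* (NM_011819) lies on chromosome 8 at 73153293 to 73155534 and *Fgf21* (NM_020013) on chromosome 7 at 52869260 to 52870860. *Slit2* (NM_178804) and *Il6* (NM_031168) lie on chromosome 5, at 48374394 to 48697521 and at 30339701 to 30346508. Counts cover the exons of each gene as a whole, from 947 bases for *Fgf21* to 8492 for *Slit2*.

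The study set 2 routes to cAMP side by side, so the window from 250 bases before to 50 bases after each start, 300 bases in all, was searched on both strands for the cAMP response element (TGACGTCA), its core (TGACG), which the full element contains, and the C/EBP-ATF element (TGATGNAA). The full element was in none of the 8 promoters of the 7 genes, and 1.79% of the 32851 promoters in the RefSeq table (GRCm38.p6) held it. The core was in the promoters of *Il6* and *Fgf21*, beginning 135 and 68 bases upstream, against 20.8% of all promoters. Only *Fgf21* held the C/EBP-ATF element, 139 bases upstream, against 3.97% of all promoters. Of each of 4 genes the 250 bases before the start are printed, for the pair with a match and for the pair that changed in most comparisons, *Nrg4* and *Bmp8b*, 5′ to 3′ on the strand of the gene, with the matches in capitals. Each was found once, letter for letter, in mm9, and ends within 47 bases of the start of the counted gene.

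Fgf21, chr7:52870861-52871110, minus strand: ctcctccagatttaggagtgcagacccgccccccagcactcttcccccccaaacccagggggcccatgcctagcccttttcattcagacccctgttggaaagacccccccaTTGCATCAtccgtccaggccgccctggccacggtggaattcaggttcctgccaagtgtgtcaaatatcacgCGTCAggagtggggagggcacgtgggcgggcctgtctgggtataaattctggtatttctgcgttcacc
Il6, chr5:30339404-30339653, plus strand: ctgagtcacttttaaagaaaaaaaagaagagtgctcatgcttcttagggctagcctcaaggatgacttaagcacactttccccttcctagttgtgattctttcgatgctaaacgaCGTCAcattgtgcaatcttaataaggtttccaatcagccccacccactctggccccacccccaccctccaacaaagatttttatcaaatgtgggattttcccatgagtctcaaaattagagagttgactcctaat
Nrg4, chr9:55131433-55131682, minus strand: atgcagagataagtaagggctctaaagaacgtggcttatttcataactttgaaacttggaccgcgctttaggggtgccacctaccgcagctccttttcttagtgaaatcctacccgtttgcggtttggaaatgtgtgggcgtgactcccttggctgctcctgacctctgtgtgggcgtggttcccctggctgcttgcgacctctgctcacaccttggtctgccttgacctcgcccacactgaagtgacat
Bmp8b, chr4:122782154-122782403, plus strand: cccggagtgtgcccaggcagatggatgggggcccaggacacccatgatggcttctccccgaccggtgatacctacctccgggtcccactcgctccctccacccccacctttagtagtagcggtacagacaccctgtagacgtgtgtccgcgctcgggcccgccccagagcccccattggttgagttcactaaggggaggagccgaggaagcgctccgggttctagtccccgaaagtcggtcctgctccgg

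No matching letters stood in the windows of *Nrg4*, *Bmp8b*, *Metrnl*, *Slit2* or either of the 2 windows listed for *Gdf15*. In mm9 the 2 starts listed for *Gdf15* lie 821 and 460 bases before the start of the counted gene. The bases next to that counted start were therefore not searched. A match is a description of letters and not evidence that a protein binds there.

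In edgeR *Bmp8b* rose and *Nrg4* fell with both treatments on HFD, and no other tested factor passed in a treatment comparison. *Fgf21* and *Il6* were below the filter and were compared by permutation instead. A factor that did not pass was not thereby shown to be unchanged. The tests were edgeR's quasi-likelihood test with Benjamini-Hochberg adjustment over 13277 genes, and passing means an adjusted p-value under 0.05. In C-3BO mice on HFD, 1 of the 5 tested factors rose, against 19.3% of all tested genes, and 1 fell, against 15.5%. With CL on HFD, 1 rose against 12.7% of all genes and 1 fell against 10.8%. With CL on chow, 1 rose, *Bmp8b*, against 9.16% of all genes, and none fell against 6.13%. In C-3BO mice on chow none of the 5 passed in edgeR, where 15.8% of genes rose and 15.9% fell. There 3 had an unadjusted p-value under 0.05, all with a lower mean in C-3BO mice, and DESeq2 passed 1. These counts do not set the factors apart from other genes. Library totals without TMM factors moved the median log2 fold change of all genes by -0.20 to -0.14 in the 4 treatment comparisons and by 0.15 to 0.18 in the 4 diet comparisons. The share of called genes that were higher went with it from between 49.8% and 59.9% to between 20.2% and 30.1% for treatment, and from between 46.1% and 52.6% to between 71.2% and 84.8% for diet. The medians with TMM factors lay between -0.03 and 0.03.

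Diet comparisons passed 1 factor each. *Bmp8b* fell from chow to HFD in control mice, where 17.5% of genes fell and 15.4% rose. *Nrg4* fell in C-3BO mice, where 12.2% of genes fell and 13.5% rose, and in CL mice, where 12.7% fell and 10.9% rose. *Metrnl* rose in saline mice, where 7.45% of genes rose and 8.04% fell. The C-3BO effect differed between diets for 2 of the 5 factors, *Bmp8b* and *Nrg4*, against 2.08% of all genes. The CL effect differed between diets for none, against 0.0151% of all genes, with 2 at an unadjusted p-value under 0.05 and none in DESeq2. The C-3BO effect differed from the CL effect for none on chow, against 6.24%, and for none on HFD, against 1.80%. Of these, 1 on chow and 0 on HFD had an unadjusted p-value under 0.05, and DESeq2 passed none.

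**Figure D2:**
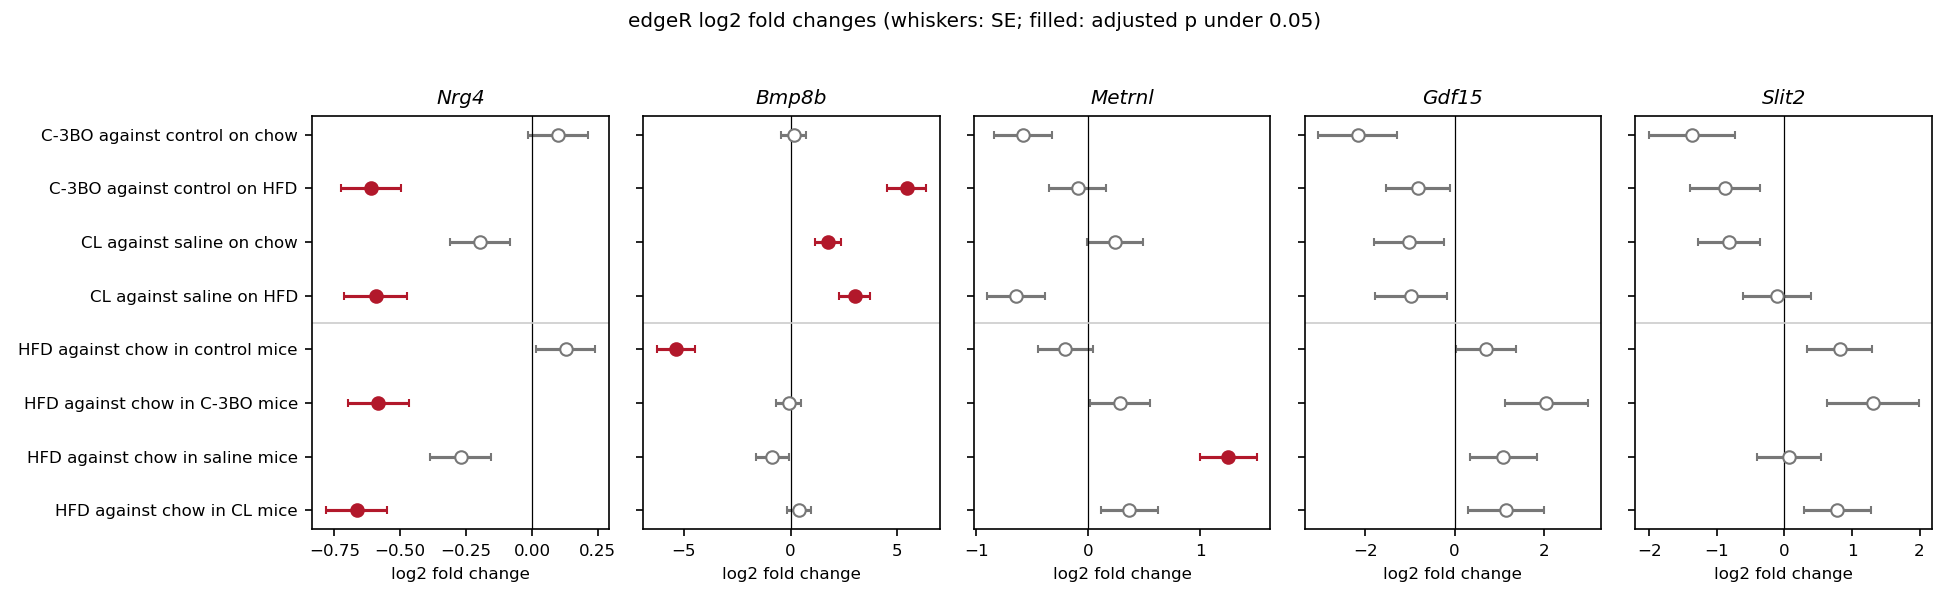
Log2 fold changes of the 5 tested factors in the 4 treatment comparisons (upper rows) and 4 diet comparisons (lower rows), from edgeR over 40 libraries, with whiskers for the SE and filled points for an adjusted p-value under 0.05. *Bmp8b* is right of 0 in the upper rows and far left of 0 for diet in control mice at -5.37, while *Nrg4* is left of 0 in 4 filled rows between -0.67 and -0.58; each panel has its own horizontal scale.

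*Nrg4* encodes a small member of the epidermal growth factor family, a ligand of ErbB receptors that brown fat sends to the liver. It was present at 52.5 to 148 CPM in every library. On HFD the 5 control mice had 143, 142, 131, 130 and 136 CPM, and the 5 C-3BO mice had 97.5, 90.4, 99.9, 84.3 and 74.5 CPM. All 5 C-3BO values lay below all control values, with means of 89.4 ± 10.3 and 137 ± 6.10 CPM (SD, n = 5 each). The log2 fold change was -0.61 (SE 0.12, edgeR adjusted p = 6.95e-05), a fold of 0.655. Without replicates 4 and 5 of HFD C-3BO it was -0.51 (edgeR adjusted p = 0.00399).

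CL on HFD gave a drop of like size. The saline mice had 87.9, 121, 118, 108 and 91.3 CPM and the CL mice 78.0, 84.5, 75.3, 58.7 and 52.5 CPM. The groups did not overlap, and the log2 fold change was -0.59 (SE 0.12, edgeR adjusted p = 0.000322). The C-3BO and CL effects on HFD differed by -0.02 (95% interval -0.34 to 0.31), and did not differ beyond their error (edgeR adjusted p = 0.987).

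On chow *Nrg4* was at 134 ± 10.8 CPM in C-3BO mice, between 121 and 148, and at 125 ± 10.6 CPM in controls, between 116 and 140. These groups overlapped and the log2 difference of 0.10 did not pass (edgeR adjusted p = 0.534). Its sign turned to -0.10 when library totals were used without TMM factors. CL mice on chow had 111 ± 19.7 CPM, from 80.0 to 132, and saline mice 127 ± 12.2 CPM, from 113 to 142. That difference of -0.20 did not pass either (edgeR adjusted p = 0.255), and reached -0.35 with an adjusted p-value of 0.0378 only with library totals, over a range of 0.0378 to 0.589 for all alternatives.

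The C-3BO effect on *Nrg4* on HFD was lower than the effect on chow (log2 difference -0.71, SE 0.16, edgeR adjusted p = 0.0111). Without replicates 4 and 5 of HFD C-3BO the difference was -0.61 and no longer passed (edgeR adjusted p = 0.0805). The range of p-values over all alternatives was 0.00277 to 0.0805. The same difference for CL was -0.40 and did not pass (edgeR adjusted p = 0.450). From chow to HFD *Nrg4* fell in C-3BO mice, with no overlap (log2 fold change -0.58, edgeR adjusted p = 0.000267), and in CL mice by a log2 fold change of -0.67, where 4 of 5 HFD mice lay below all chow mice (edgeR adjusted p = 7.37e-05). The HFD CL libraries are among the 12 smallest, and 11 of 12 liver and 3 of 3 epididymis markers rose with HFD in CL mice as well as in C-3BO mice. Without replicates 4 and 5 of HFD C-3BO the diet change in C-3BO mice was -0.48 (edgeR adjusted p = 0.00967). In the CL cohort all HFD libraries carried the foreign transcripts and the chow libraries did not. The part of these transcripts in CL mice therefore cannot be told apart from diet, and was not tested. In C-3BO mice all 11 skeletal muscle markers also fell with HFD, with sums of 469 to 4531 CPM on chow and 7.45 to 89.9 CPM on HFD. All 5 endothelium markers rose with HFD in C-3BO mice and in CL mice. The part of these tissues in the *Nrg4* level was not tested. The diet change of *Nrg4* did not pass in control mice, at 0.13, or in saline mice, at -0.27 (edgeR adjusted p = 0.419 and 0.110). The diet and treatment comparisons share groups, so these values are not independent of each other.

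In order of mean level, *Nrg4* stood highest in HFD control, then chow C-3BO at 134, chow saline at 127, chow control at 125, chow CL at 111, HFD saline at 105, HFD C-3BO at 89.4 and HFD CL at 69.8 ± 13.6 CPM. Each group overlapped the next in this order.

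*Bmp8b* encodes a bone morphogenetic protein made by brown adipocytes, which is known to raise their response to adrenergic input. It was nearly absent from HFD control mice, where the 5 libraries held 0, 0, 1, 4 and 0 counts although their totals ran from 7503112 to 13461733. The HFD C-3BO mice had 18, 13, 6, 71 and 12 counts, which is 2.45, 1.47, 0.734, 14.5 and 2.46 CPM. Every C-3BO mouse was above every control mouse, at 4.31 ± 5.72 against 0.0729 ± 0.128 CPM (SD, n = 5 each), and replicate 4 stood far above the other 4. The ratio of pooled counts was 43.3, with a 95% interval of 18.0 to 136 that covers counting error only. The fitted log2 fold change was 5.43 (SE 0.92, edgeR adjusted p = 1.60e-05).

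Replicate 4 of HFD C-3BO is among the libraries with liver and epididymis transcripts, with marker sums of 464 and 60.7 CPM. Replicate 5 had like sums of 435 and 55.9 CPM and a *Bmp8b* level close to that of replicate 1, whose sums were 5.58 and 0. Without replicate 4 the log2 fold change was 4.19 (edgeR adjusted p = 0.000434), and without replicates 4 and 5 it was 4.03 (edgeR adjusted p = 0.00172). Without replicate 4 of HFD control, which holds 4 of that group's 5 counts, it was 6.85. The part of the foreign transcripts in the level of replicate 4 was not tested.

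On chow the control mice had 2.23, 2.43, 10.7, 1.95 and 2.40 CPM of *Bmp8b* and the C-3BO mice had 6.33, 7.06, 4.18, 1.88 and 2.15 CPM. The groups overlapped widely and the log2 difference was 0.15 (95% interval -0.98 to 1.28, edgeR adjusted p = 0.876). Its sign was not stable, at 0.94 without replicate 3 of chow control and -0.063 with library totals. Replicate 3 of chow control also had the highest muscle marker sum of its group, 11210 CPM, and replicate 4 had 10547 CPM of muscle markers and 1.95 CPM of *Bmp8b*. The part of muscle in these values was not tested.

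The C-3BO effect on *Bmp8b* was larger on HFD than on chow by 5.28 on the log2 scale (SE 1.13, edgeR adjusted p = 0.00639). Without replicates 4 and 5 of HFD C-3BO it was larger by 3.89 and no longer passed (edgeR adjusted p = 0.0777, with a range of 0.000289 to 0.0777 over all alternatives). The same HFD control libraries enter the diet comparison in control mice, where *Bmp8b* fell by 5.37 on the log2 scale (SE 0.90, edgeR adjusted p = 1.49e-05) with no overlap. Leaving out single libraries gave values from -6.80, without replicate 4 of HFD control, to -4.57, without replicate 3 of chow control. All 11 skeletal muscle markers fell in this comparison, from sums of 939 to 11210 CPM on chow to 6.19 to 270 CPM on HFD. All 5 endothelium markers rose, from sums of 694 to 1035 CPM to 1365 to 1775 CPM. The part of these tissues in the *Bmp8b* level was not tested. In C-3BO mice the HFD and chow means were 4.31 and 4.32 CPM, with a log2 difference of -0.09 (95% interval -1.25 to 1.08, edgeR adjusted p = 0.941), and -1.48 without replicates 4 and 5. The like means include the high values of replicate 3 of chow control and replicate 4 of HFD C-3BO. The medians were 2.40 CPM in chow control, 4.18 in chow C-3BO and 2.45 in HFD C-3BO mice. Equal levels in these 3 groups were therefore not shown. Of the 4 groups of this cohort HFD control was the one with almost no *Bmp8b* counts.

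CL raised *Bmp8b* on HFD from 1.65, 0.157, 0.485, 2.00 and 1.43 CPM in saline mice to 6.73, 8.65, 13.7, 7.26 and 4.00 CPM. Every CL mouse lay above every saline mouse, with 28 counts in saline and 204 in CL mice and a ratio of 7.91 (95% counting interval 5.31 to 12.2). The log2 fold change was 3.00 (SE 0.72, edgeR adjusted p = 0.00232). The liver marker sum was 92.2 to 273 CPM in these saline libraries and 155 to 301 CPM in these CL libraries. *Bmp8b* in HFD saline mice, at 1.15 ± 0.789 CPM, lay above HFD control mice, at 0.0729 ± 0.128 CPM, although both were untreated mice on 7 days of HFD. These 2 groups come from different cohorts that differ in age, strain and injection, and were not compared by a test.

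On chow the saline mice had 2.27, 1.56, 2.15, 2.84 and 0.170 CPM and the CL mice 3.74, 8.06, 10.2, 3.68 and 4.49 CPM. The groups did not overlap, and the log2 fold change of 1.75 passed narrowly (SE 0.60, edgeR adjusted p = 0.0409). In this comparison 10 of 11 skeletal muscle markers fell, with sums of 13.6 to 2999 CPM in saline and 14.5 to 169 CPM in CL mice, and their part in the *Bmp8b* level was not tested. The direction was kept under all alternatives, but the call was lost without any 1 of replicates 1, 2, 3 and 5 of chow saline or replicates 2 and 3 of chow CL. It was also lost under 3 further alternatives, DESeq2 and library totals among them, and the adjusted p-values of all alternatives ran from 0.0337 to 0.116. The CL effect was not shown to differ between diets, by 1.25 (95% interval -0.60 to 3.11). The C-3BO effect was not shown to differ from the CL effect on chow, at -1.60, or on HFD, at 2.43 (edgeR adjusted p = 0.272 and 0.412).

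By mean level *Bmp8b* was highest in HFD CL at 8.06 ± 3.56 CPM and chow CL at 6.03 ± 2.93, then in chow C-3BO, HFD C-3BO and chow control. Chow saline at 1.80 ± 1.02, HFD saline and HFD control came last. Each group overlapped its neighbour in this order. *Bmp8b* has a close copy, *Bmp8a*, whose coding sequence was 88.0% identical over 1200 aligned bases. Of all windows of 36 bases in the *Bmp8b* transcript, 8.67% also occurred in *Bmp8a*, so a small share of reads could have been assigned to either. *Bmp8a* had 11 counts in all 40 libraries.

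*Gdf15* encodes a distant member of the same superfamily, a stress hormone that acts on the hindbrain through its receptor GFRAL. None of its comparisons passed in edgeR. On chow the 5 control mice had 0.661, 0.810, 3.92, 0.625 and 1.20 CPM and the C-3BO mice 0, 0.463, 0.478, 0.111 and 0.430 CPM. Every C-3BO mouse lay below every control mouse, with 12 counts against 69 in all, of which 35 were in replicate 3 of chow control. The log2 difference of -2.16 just missed the threshold (SE 0.89, edgeR adjusted p = 0.0585), and was -1.37 without replicate 3 of chow control (adjusted p = 0.275). It passed in DESeq2 (adjusted p = 0.0273), with library totals and without replicate 4 of chow control, within a range of 0.0273 to 0.275.

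From chow to HFD the *Gdf15* mean in C-3BO mice was 0.296 ± 0.224 and 1.40 ± 1.16 CPM, a log2 difference of 2.05 that did not pass in edgeR (adjusted p = 0.103). It passed in DESeq2 (adjusted p = 0.0461) and was 1.12 without replicates 4 and 5 of HFD C-3BO, with p-values of 0.0461 to 0.529 over all alternatives. HFD saline mice had 2.79 ± 2.53 CPM, from 0.728 to 6.01, and the highest value rests on 6 counts in replicate 4, the library of 849126 counts, where 3 counts are 3.01 CPM. HFD control mice had 2.28 ± 1.42 CPM, which this spread does not set below HFD saline mice, and chow C-3BO mice had the lowest mean. Each group overlapped the next in order of mean.

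*Metrnl* encodes a secreted protein of fat and muscle that is known to act on immune cells. It was present at 4.86 to 26.1 CPM in all libraries, and its level was highest in HFD saline mice. Those 5 mice had 16.3, 22.0, 15.9, 26.1 and 12.7 CPM, and the chow saline mice 5.62, 7.13, 11.4, 5.68 and 7.40 CPM. All HFD values lay above all chow values, and *Metrnl* rose by 1.25 on the log2 scale (SE 0.26, edgeR adjusted p = 0.000873), a fold of 2.38. The highest value came from replicate 4 of HFD saline, the library with 849126 counts in all, where *Metrnl* rests on 26 counts. Without that library the log2 fold change was 1.17 (edgeR adjusted p = 0.00254).

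Markers of macrophages moved with this result. All 7 tested of the 8 markers rose from chow to HFD in saline mice, and their sum went from 120 to 263 CPM on chow to 281 to 698 CPM on HFD. Of 7 fibroblast markers 4 rose, with sums of 1492 to 3461 CPM on chow and 2837 to 4695 CPM on HFD. The 5 HFD saline libraries also had liver marker sums of 92.2 to 273 CPM, against at most 5.48 CPM in chow saline. Diet and the liver transcripts therefore cannot be told apart in saline mice. In CL mice 1 of 7 macrophage markers rose with HFD, and *Metrnl* was at 11.3 ± 4.58 CPM on HFD and 8.84 ± 2.44 CPM on chow (log2 difference 0.37, edgeR adjusted p = 0.308). The part of these cells in the *Metrnl* level was not tested.

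**Figure D3:**
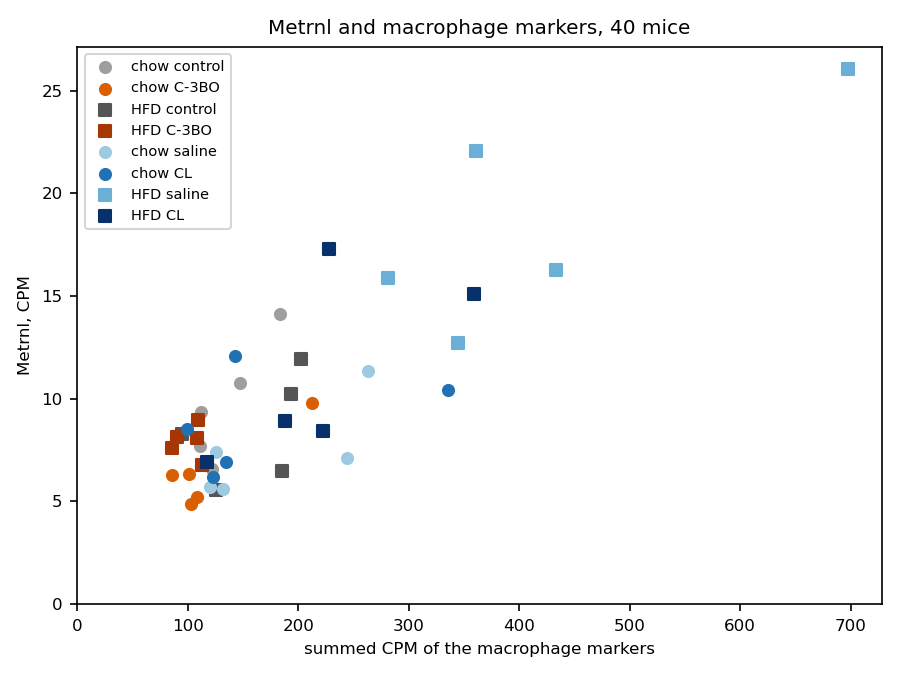
*Metrnl* level (CPM) against the summed CPM of 8 macrophage markers in each of the 40 libraries, with circles for chow and squares for HFD. The 5 HFD saline mice lie at 281 CPM or more of the markers and 12.7 CPM or more of *Metrnl*. Replicate 5 of HFD CL also lies there, at 359 and 15.1 CPM. The C-3BO mice lie at or below 9.80 CPM of *Metrnl*, among many mice of other groups.

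The treatment comparisons of *Metrnl* did not pass in edgeR. CL mice on HFD had 6.89, 17.3, 8.43, 8.91 and 15.1 CPM, which overlapped the saline mice, with a log2 difference of -0.64 (SE 0.26, edgeR adjusted p = 0.0657). This difference passed in DESeq2 (adjusted p = 0.0469) and under 5 other alternatives, within a range of 0.0224 to 0.192. In the same comparison 2 of 7 macrophage markers fell and 0 rose, with sums of 281 to 698 CPM in saline and 118 to 359 CPM in CL mice. Of 7 fibroblast markers 5 fell and 1 rose. The part of these cells in the *Metrnl* difference was not tested. C-3BO mice on chow had 6.50 ± 1.96 CPM and controls 9.70 ± 2.93 CPM, a difference of -0.58 with an adjusted p-value of 0.0793 in edgeR that ranged from 0.0184 to 0.240. On HFD C-3BO mice had 7.91 ± 0.810 CPM and controls 8.50 ± 2.62 CPM (log2 difference -0.09, edgeR adjusted p = 0.806).

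*Slit2* encodes a large guidance protein of axons and vessels, a cut fragment of which is released by beige fat. It was low, with 295 counts over the 40 libraries and at most 1.90 CPM. No comparison passed in edgeR. Saline mice on chow had 1.51, 1.34, 1.25, 1.12 and 1.28 CPM and CL mice 1.08, 0.949, 1.02, 0.505 and 0.173 CPM. The 5 CL mice lay below the 5 saline mice, and the log2 difference of -0.82 did not pass (SE 0.46, edgeR adjusted p = 0.242). C-3BO mice on chow had the lowest mean, 0.216 ± 0.165 CPM from 8 counts in all, against 0.554 ± 0.524 CPM in controls. That difference was -1.37 (SE 0.64, edgeR adjusted p = 0.0996), and passed with library totals (adjusted p = 0.0476) and without replicate 3 of chow control (adjusted p = 0.0312), within a range of 0.0312 to 0.391. HFD saline, chow saline and HFD CL mice had the highest means, 1.31 ± 0.461, 1.30 ± 0.144 and 1.26 ± 0.432 CPM, and all neighbours in the order overlapped.

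*Fgf21*, a hormone of liver and fat that acts through βKlotho, was below the filter. In HFD C-3BO mice 10, 2, 6, 9 and 2 counts gave 1.36, 0.226, 0.734, 1.83 and 0.410 CPM. HFD control mice had 1, 3, 5, 12 and 0 counts, or 0.0720, 0.267, 0.343, 0.887 and 0 CPM. The HFD C-3BO mean of 0.913 ± 0.672 CPM was the highest of the 8 groups, and 2 of its 5 mice lay above all HFD controls. The difference did not pass an exact two-sided permutation test of the means (unadjusted p = 0.119). Liver makes *Fgf21*, and the 2 libraries of this group with liver transcripts, replicates 4 and 5, had 1.83 and 0.410 CPM. Replicate 1, with 5.58 CPM of liver markers, had 1.36 CPM. These 3 values rest on 9, 2 and 10 counts, and the part of liver transcripts in the *Fgf21* level was not tested. The other 7 groups had means between 0.156 and 0.415 CPM, at or near the level of 3 counts. Exact permutation p-values of the other 7 comparisons ran from 0.214 to 0.992, and the smallest that 5 against 5 mice allow is 0.00794.

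*Il6*, the cytokine interleukin-6, was not detectable in most libraries. It had 0 counts in 31 of 40 and at most 3 in any, and all 15 libraries of chow C-3BO, HFD C-3BO and HFD saline mice were at 0. A count of 0 allows up to 3 counts, or 0.206 to 3.01 CPM depending on the library. Chow CL mice had 0, 1, 3, 1 and 2 counts, the most of any group, at a mean of 0.128 ± 0.105 CPM. Chow saline mice had 0, 0, 3, 0 and 0 counts, and the exact two-sided permutation test of these groups gave an unadjusted p of 0.325. All levels of *Il6* were at or under the level of 3 counts, so no difference was detectable at this depth.

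**Figure D4:**
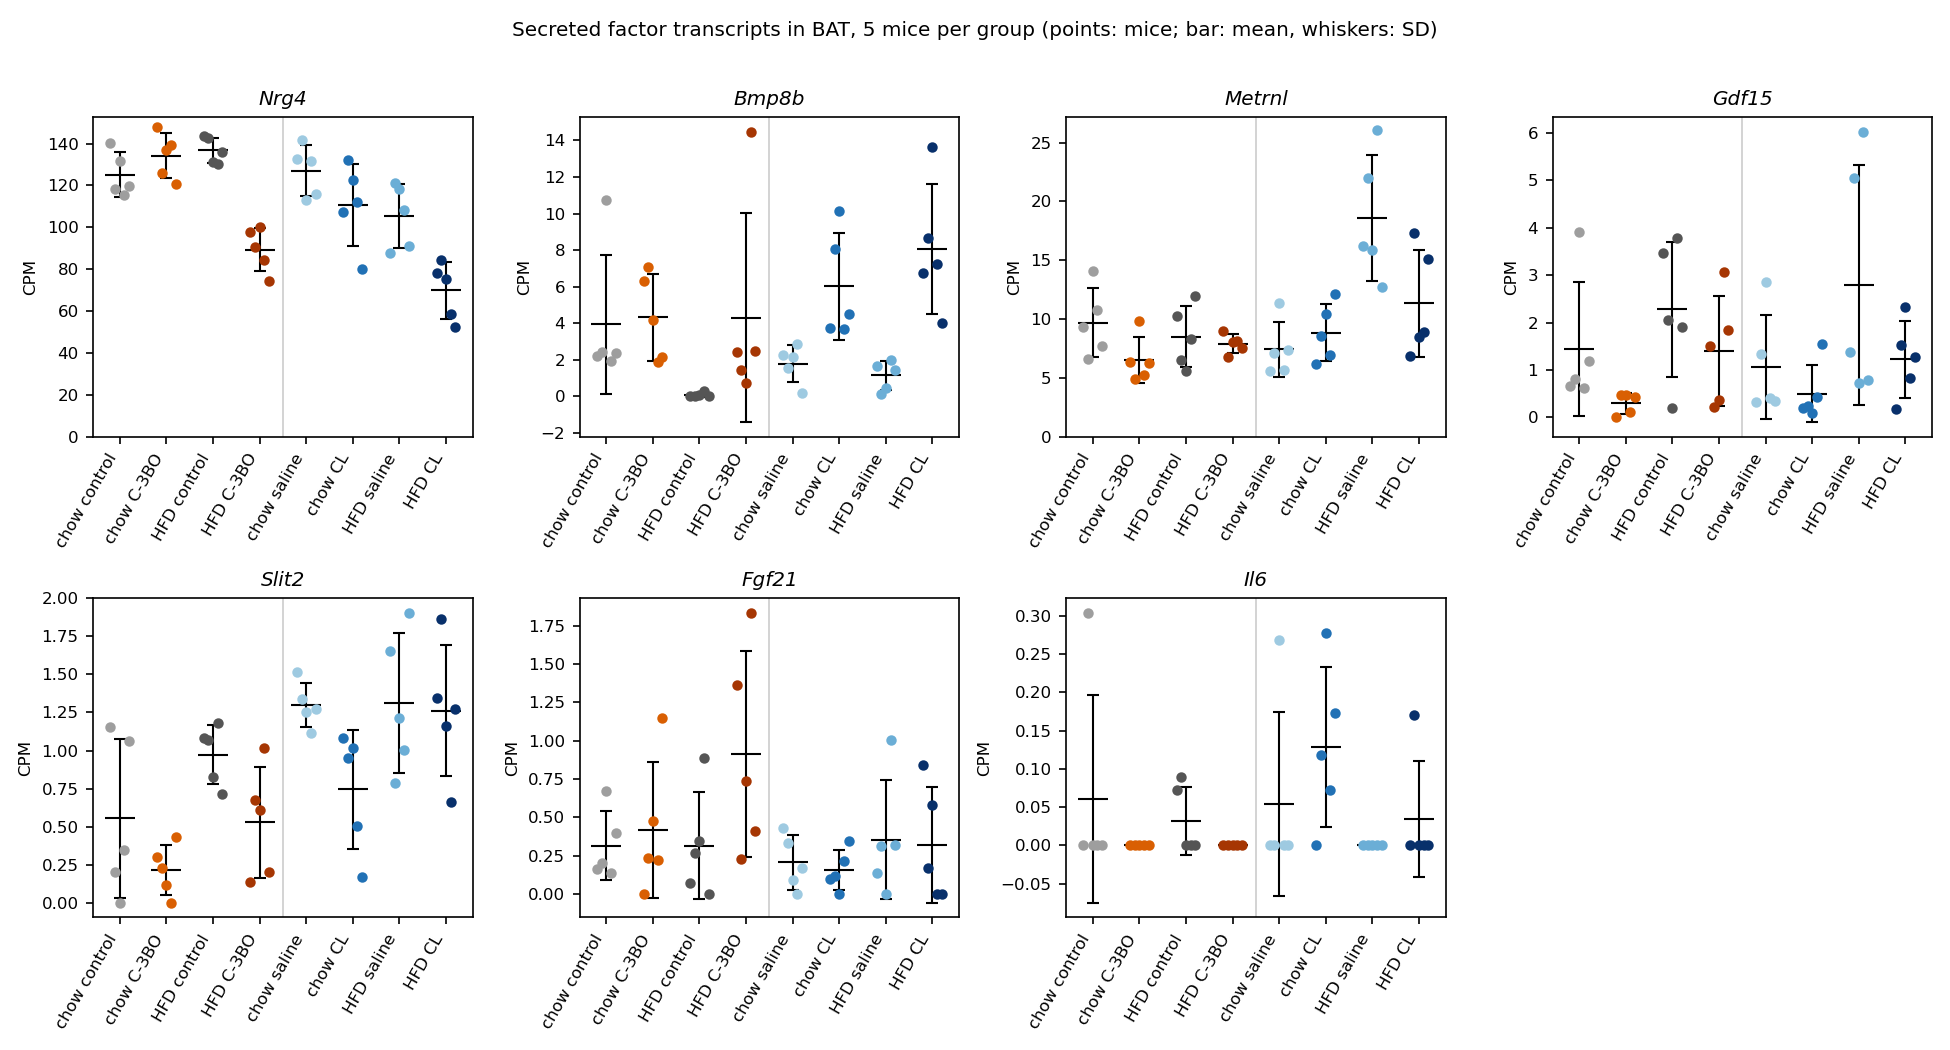
CPM of the 7 factors in the 40 mice by group, with a point per mouse, a bar for the mean and whiskers for the SD, and a scale of its own in each panel. By group mean *Nrg4* is lowest in HFD C-3BO and HFD CL mice, *Bmp8b* is near 0 in HFD control mice and highest in CL mice, and *Metrnl* is highest in HFD saline mice. The highest single *Bmp8b* value is replicate 4 of HFD C-3BO at 14.5 CPM.

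The factors did not share a pattern. Over the 40 libraries the log2 CPM of *Gdf15* and *Metrnl* had a Pearson r of 0.61, and of 0.57 over the 28 libraries other than the 12 with the lowest totals. The other 9 pairs of tested factors lay between -0.39 and 0.21. The genes whose pattern was most like that of *Bmp8b* among 12538 candidates were *Orc4*, *Sacm1l* and *Slc31a1*, with r of 0.87, 0.82 and 0.82 over 40 libraries and 0.87, 0.84 and 0.78 over 28. *Orc4* encodes a part of the origin recognition complex and *Slc31a1* a copper transporter. *Nrg4* was most like *Ppargc1b*, *Scaper* and *Zfhx3*, at 0.79, 0.79 and 0.78, but the values over 28 libraries were 0.51, 0.34 and 0.25. *Gdf15* was most like the tubulin genes *Tuba1a* and *Tubb2a* and the receptor gene *Tnfrsf12a*, at 0.76, 0.76 and 0.72. *Metrnl* was most like *Slc37a2* and the macrophage genes *Ctss* and *Cd68*, each at 0.81 over 40 libraries and at 0.49, 0.59 and 0.42 over 28. *Slit2* was most like *Mertk*, *Osmr* and *Csf2rb2*, at 0.70, 0.68 and 0.68. All of these points share their libraries and groups, and the values describe likeness only.

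Receptors through which the factors act were measured in the same tissue. Of 25 receptor genes 21 were tested, and in C-3BO mice 4 rose and 6 fell on chow and 4 rose and 3 fell on HFD. With CL 0 rose and 3 fell on chow, and 2 rose and 4 fell on HFD. Over all tested genes, the shares that rose and fell were 15.8% and 15.9% in C-3BO mice on chow, 19.3% and 15.5% on HFD, 9.16% and 6.13% with CL on chow, and 12.7% and 10.8% with CL on HFD. The counts of all related lists are to be read beside these shares, and no list was tested as a set. The median log2 fold change of the list lay between -0.19 and 0.04 in these comparisons, beside -0.03 to -0.01 over all tested genes. *Klb*, which encodes βKlotho, the co-receptor for FGF21, rose in C-3BO mice from 58.6 ± 13.6 to 108 ± 15.1 CPM on chow and from 35.5 ± 6.33 to 68.1 ± 19.7 CPM on HFD (edgeR adjusted p = 0.00109 and 0.000553). It rose with CL on HFD from 43.4 ± 18.1 to 72.0 ± 13.2 CPM (edgeR adjusted p = 0.0172), and was at 98.0 ± 18.0 and 91.3 ± 25.6 CPM with and without CL on chow. *Fgfr1*, the kinase that pairs with it, fell with CL, with log2 fold changes of -0.28 on chow and -0.40 on HFD (edgeR adjusted p = 0.0206 and 0.000859).

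*Bmpr1a*, a BMP receptor, fell with CL from 76.5 ± 17.7 to 54.5 ± 2.01 CPM on chow and from 70.8 ± 4.81 to 54.7 ± 5.62 CPM on HFD (edgeR adjusted p = 0.00141 and 0.0149). It also fell in C-3BO mice on chow, from 74.1 ± 4.40 to 57.3 ± 2.98 CPM. *Acvr1c*, the ALK7 receptor of the same superfamily, rose on HFD in C-3BO mice from 102 ± 21.4 to 192 ± 32.6 CPM (edgeR adjusted p = 2.08e-05) and with CL from 112 ± 28.2 to 153 ± 11.2 CPM (edgeR adjusted p = 0.0470). The NRG4 receptor gene *Erbb4* was low, between 0.559 and 4.51 CPM as group means, and passed in none of the 4 treatment comparisons. *Il6ra*, the specific receptor for interleukin-6, rose in C-3BO mice on chow (log2 fold change 0.70) and fell with CL on chow and HFD (-0.82 and -0.79). *Robo1*, a receptor of SLIT2, was low and passed in none of the 4, and *Kit*, the receptor reported for METRNL, fell in C-3BO mice on both diets (-0.61 and -0.98). *Gfral*, the receptor of GDF15, had 1 count in all 40 libraries.

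Family relatives of the factors formed a second list. Of 41 genes 25 were tested, and in C-3BO mice 0 rose and 9 fell on chow and 0 rose and 4 fell on HFD. With CL 1 rose and 1 fell on chow, and 0 rose and 7 fell on HFD. From chow to HFD 3 rose and 6 fell in control, 5 rose and 4 fell in C-3BO, 5 rose and 1 fell in saline and 1 rose and 0 fell in CL mice. Over all tested genes, 15.4% rose and 17.5% fell with diet in control mice, and 13.5% and 12.2% in C-3BO mice. These shares were 7.45% and 8.04% in saline mice and 10.9% and 12.7% in CL mice. The list's median log2 fold change in the treatment comparisons lay between -0.46 and -0.15, beside -0.03 to -0.01 over all tested genes. *Fgf1*, a growth factor of fat remodelling, fell in C-3BO mice from 87.9 ± 17.2 to 12.5 ± 3.90 CPM on chow and from 78.2 ± 12.2 to 15.9 ± 7.18 CPM on HFD. These log2 changes were -2.81 and -2.30, with no overlap on either diet (edgeR adjusted p = 2.43e-08 and 4.40e-07). With CL it fell on HFD (-1.32), and on chow the log2 difference of 0.06 did not pass. *Ctf1*, which encodes cardiotrophin-1 of the interleukin-6 family, fell in C-3BO mice on chow and HFD (-0.61 and -1.41) and with CL on HFD (-0.82). *Btc*, an ErbB ligand like NRG4, fell with CL on HFD from 33.4 ± 3.30 to 10.6 ± 2.29 CPM (edgeR adjusted p = 9.92e-05). *Mstn*, the muscle factor myostatin, was the relative that fell with CL on chow (log2 fold change -3.23), named after its values were seen. There 10 of 11 skeletal muscle markers also fell, and their part in this result was not tested.

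A further list held 15 other factors reported for brown fat. All 15 were tested, and 2 rose and 6 fell in C-3BO mice on chow, 4 rose and 3 fell on HFD, 3 rose and 1 fell with CL on chow, and 3 rose and 3 fell with CL on HFD. The list's median log2 fold change was -0.34, 0.26, -0.08 and -0.10 in that order. *Rbp4*, the retinol carrier, rose in all 4, by 2.18 and 4.08 in C-3BO mice and by 1.90 and 2.64 with CL on chow and HFD. It went from 89.7 ± 34.4 to 407 ± 46.1 CPM in C-3BO mice on chow, where liver markers summed to at most 5.49 CPM. Liver is a main source of *Rbp4*, and in the HFD comparisons the liver marker sums given above stand beside it. *Kng2*, a kininogen gene, fell in C-3BO mice from 233 ± 6.97 to 57.5 ± 7.86 CPM on chow and from 165 ± 26.2 to 86.7 ± 24.5 CPM on HFD. *S100b*, a factor for sympathetic nerve growth, rose in C-3BO mice on HFD from 171 ± 67.9 to 409 ± 78.4 CPM. *Epdr1* fell in C-3BO mice on chow (log2 fold change -0.85) and rose on HFD (2.15), where its level in HFD control mice was 2.31 ± 0.403 CPM.

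Enzymes that cut the precursors, and inhibitors of the factors, formed a list of their own. Of 14 genes 11 were tested, with 2 up and 2 down in C-3BO mice on chow, 1 up and 1 down on HFD, 0 up and 1 down with CL on chow, and 2 up and 3 down with CL on HFD. The list's medians were 0.04, -0.12, -0.05 and -0.24. *Furin*, the general proprotein convertase, rose in C-3BO mice on chow (log2 fold change 0.41, edgeR adjusted p = 0.00121). *Bambi*, a decoy receptor of the BMP pathway, fell in C-3BO mice on chow and HFD (-1.15 and -1.07). Of 16 regulators 2 rose and 2 fell, 2 rose and 3 fell, 1 rose and 2 fell, and 0 rose and 1 fell in the same order, with medians of -0.05, -0.07, 0.01 and -0.11. *Ddit3*, the stress factor CHOP, fell in C-3BO mice on chow and HFD (-1.01 and -0.99), and *Cebpb* rose there (1.38 and 1.68) but fell with CL on chow (-0.79, edgeR adjusted p = 0.0285). *Ppargc1b*, a coactivator of mitochondrial genes, fell on HFD in C-3BO mice (-0.56) and with CL (-0.87).

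**Figure D5:**
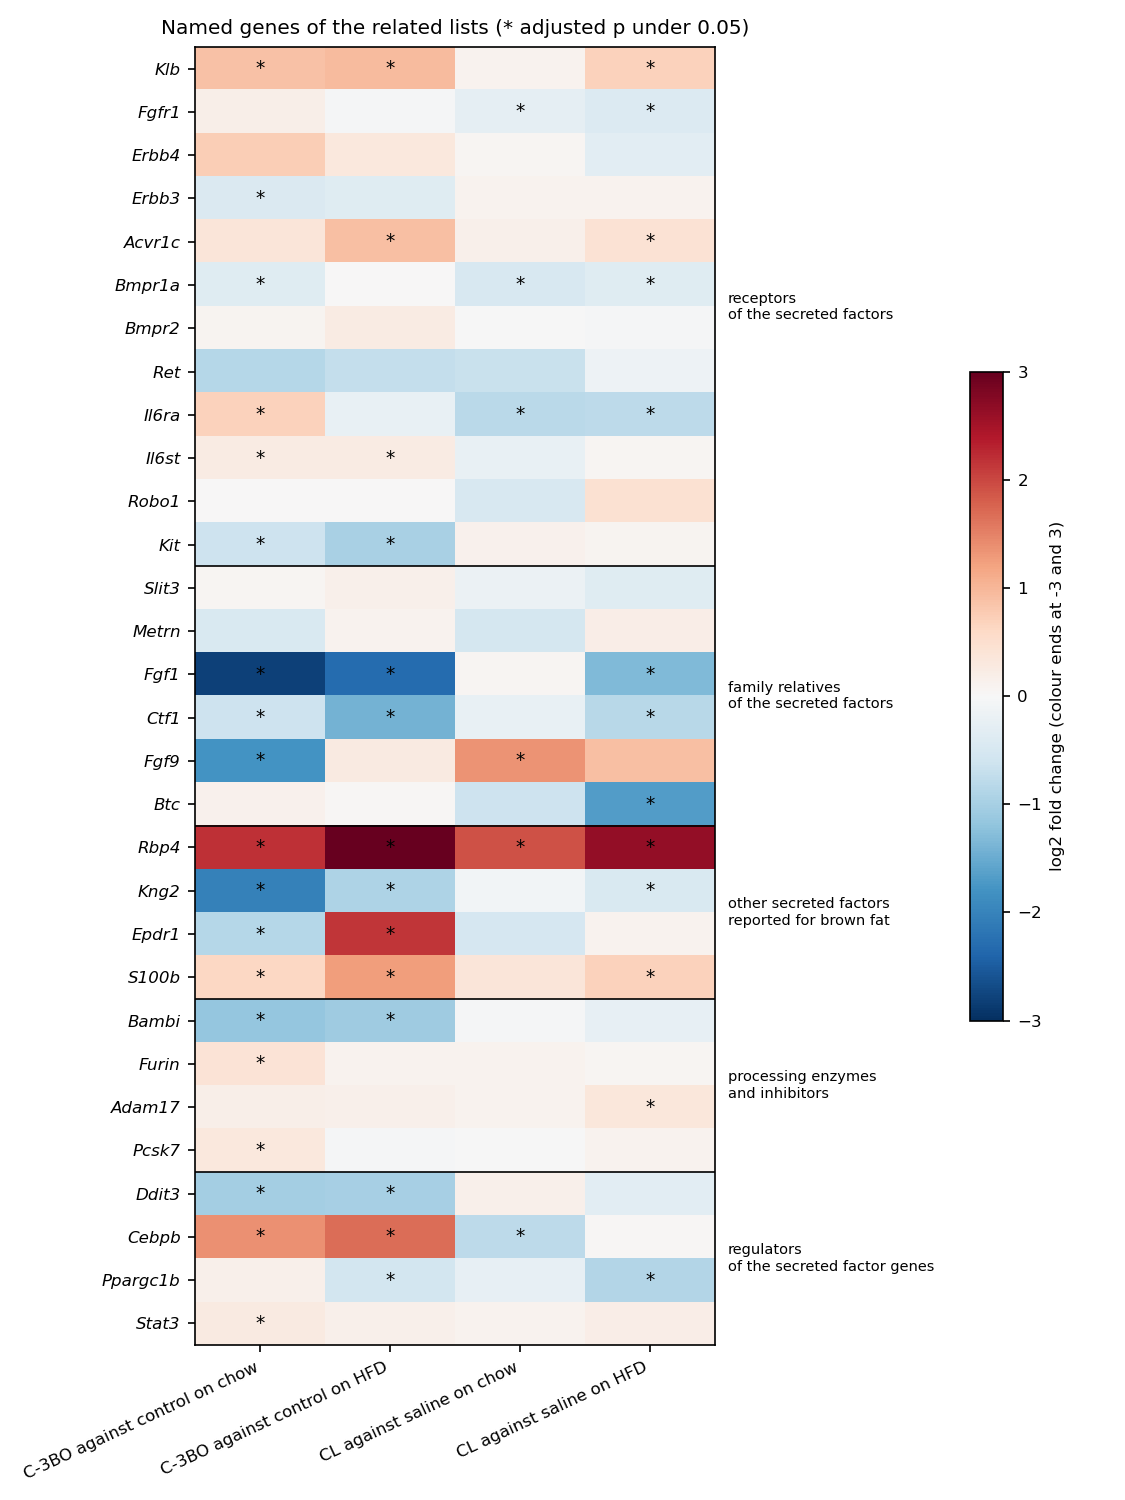
Log2 fold changes of the named and tested genes of the 5 related lists in the 4 treatment comparisons, as colours from blue at -3 to red at 3, where the scale ends, with a star at an edgeR adjusted p-value under 0.05. *Rbp4* is red in all 4 columns, beyond the scale at 4.08 in C-3BO mice on HFD, and *Fgf1* is blue in 3 of 4, with 0.06 in the remaining one.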

How the data were processed

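Poly(A) RNA from BAT was made into TruSeq libraries and sequenced. The authors aligned the reads (STAR, mm9), passed them through HOMER, used iRNA-seq to count those in the exons of each RefSeq gene, and deposited raw counts. Versions and strandedness are not given in the sources used here. Without strand, overlapping genes cannot be told apart, and reads shared with close copies may be split.

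Groups were taken from the labels, and all 40 libraries and 20295 genes were used. edgeR 4.0.16 kept 13277 genes (filterByExpr, minimum count 10), scaled libraries by TMM and fitted 1 mean per group with a quasi-likelihood F test, adjusted by Benjamini-Hochberg over all tested genes. Standard errors are the log2 fold change divided by the square root of F, and intervals are 95%. Factors below the filter were compared by exact permutation over 252 regroupings. Likeness used log2 CPM with a prior count of 2 and genes of at least 1 CPM. The factors, gene lists and tests were chosen with earlier results of these data known. All 7 factors are named, with the 3 most alike genes, the best known receptors and relatives, and the genes of lowest p-value in each list. Nothing beyond the labels shows that libraries of a group came from separate litters or days, so p-values measure the spread between these mice.

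Alternatives were DESeq2 1.42.0, library totals, RLE factors, no filter, at least 10 counts in every library, the compared libraries alone, the replicate block, a fold threshold, and leaving libraries out. Promoter sequences are those of RefSeq (GRCm38.p6), matched by symbol for 7 of 7 genes. R 4.3.3, Python 3.11.15, Biopython 1.88 and matplotlib 3.10.9 were used. Proteins, other tissues and physiological data were not analysed here.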

Additional observations from a re-analysis of the deposited data

Results flagged for a closer look

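In 8 of 53 sets of 5 mice, 1 value stood apart from the other 4 by Dixon's test at its critical value of 0.71. The test assumes normally distributed values, and several sets are counts near 0, so no chance rate is set beside this number. A set with 4 mice at 0 and 1 above 0 is flagged whatever the count. For *Bmp8b* these were replicate 3 of chow control at 10.7 CPM, replicate 4 of HFD control at 0.296 CPM, which rests on 4 counts, and replicate 4 of HFD C-3BO at 14.5 CPM. For *Gdf15* they were replicate 3 of chow control at 3.92 CPM, the same mouse as for *Bmp8b*, and replicate 5 of chow CL at 1.55 CPM. For *Il6* they were replicate 2 of chow control at 0.304 CPM, replicate 3 of chow saline at 0.268 CPM and replicate 2 of HFD CL at 0.170 CPM, each from at most 3 counts in a group otherwise at 0.

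The C-3BO effect differed between diets for 2 factors by edgeR's test of the difference. On the log2 scale the effect on HFD minus that on chow was -0.71 for *Nrg4* and 5.28 for *Bmp8b*. Neither passed without replicates 4 and 5 of HFD C-3BO.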

How the results depend on the processing

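Of 60 results, a factor in a comparison, 40 kept their direction and side of the threshold under every alternative that gave a value. Of the 11 that passed, 8 did so. Of 1180 single values 1106 kept both, 11 lost the call, 17 gained it and 46 turned sign. The cause of the changes was not tested, except where the filter removes a factor. *Bmp8b* was not tested under the filter of 10 counts in every library. For C-3BO on HFD the filter also removes it in the 10 compared libraries alone, with or without the replicate block. *Gdf15* and *Slit2* had no value under the filter of 10 counts either, nor under some further alternatives. For C-3BO on chow 14 alternatives gave a value for each of these 2 factors, against 17 for *Nrg4*.

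The count of passing factors in C-3BO against control on chow, 0, became 1 in DESeq2, 3 with library totals and 1 with the replicate block, and 0 to 1 leaving out single libraries. For C-3BO on HFD, 2 became 1 with 10 counts in every library, in the compared libraries alone, with the replicate block, each without a value for *Bmp8b*, and with an absolute log2 fold change above 1, which leaves out *Nrg4*. For CL on chow, 1 became 0 in DESeq2, with 10 counts in every library and with the replicate block, and 0 to 1 leaving out single libraries. For CL on HFD, 2 became 1 with 10 counts in every library and with the fold threshold, and 3 with *Metrnl* in DESeq2, with library totals, with the replicate block and without replicate 5 of HFD saline or replicate 2 or 5 of HFD CL. For diet, the count became 0 in control mice with 10 counts in every library, 2 in C-3BO mice in DESeq2 and 0 in C-3BO and CL mice with the fold threshold. For the difference of C-3BO effects between diets, 2 became 1 with 10 counts in every library and 0 when HFD C-3BO replicates 4 and 5 were left out.

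Signs turned for values that passed nowhere. With library totals C-3BO on chow was -0.10 for *Nrg4* and -0.063 for *Bmp8b*, and diet in C-3BO mice was 0.092 for *Bmp8b*. The CL effect on HFD minus that on chow for *Gdf15* was -0.041 in DESeq2 and -0.0059 with the replicate block. Without replicates 4 and 5 of HFD C-3BO, the C-3BO minus CL effect on HFD was 0.081 for *Nrg4* and -0.78 for *Gdf15*. Leaving out single libraries gave ranges of -0.11 to 0.94 for *Bmp8b* and C-3BO on chow, -1.34 to 0.19 for *Bmp8b* and diet in C-3BO mice, -0.22 to 0.053 for *Metrnl* and C-3BO on HFD, -0.30 to 0.077 for *Slit2* and CL on HFD, and -0.10 to 0.24 for *Slit2* and diet in saline mice. For differences of effects they were -0.058 to 0.86 for *Slit2* and -0.77 to 1.06 for *Gdf15* between diets (C-3BO and CL), -0.92 to 0.0024 for *Slit2* between treatments on chow, and -0.11 to 0.061 for *Nrg4* and -0.54 to 0.47 for *Gdf15* between treatments on HFD.

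Pairing of mice by replicate number was not shown. Same-numbered mice of compared groups had a mean correlation of their deviations between -0.14 and 0.17, and in no comparison did every pair exceed 0.1. In the comparison with the highest, C-3BO on chow, 3 of 5 mice correlated best with their own number, as did 3 of 5 for C-3BO on HFD. Such correlations cannot exclude a shared litter or day. Depth limits *Fgf21*, *Il6*, *Slit2* and *Gdf15*, whose counts lay at or under 3 in 29, 40, 11 and 11 libraries.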
